A study of Mus musculus with 24 samples.

Results

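The 8 Msx and Dlx homeobox genes Msx1, Msx2, Dlx1, Dlx2, Dlx3, Dlx4, Dlx5 and Dlx6 were followed through 4 lists of H3K27ac peaks from mouse embryonic limb buds. They were chosen by name out of 21883 protein-coding genes, and every peak within the gene body or 100 kb on either side was taken. H3K27ac is a histone acetylation of active promoters and enhancers, mapped here by chromatin immunoprecipitation and sequencing. Each group had 1 library: a Control and a Sox9null at E11.5 (E is the embryonic day), and a Control and a Sox9cKO at E12.5. Sox9 encodes the transcription factor that cartilage formation requires. The sources used here do not give the Cre driver, the alleles, the strain, the number of pooled embryos or whether fore or hind limbs were taken. With no replicates nothing was tested, and all values describe these libraries.

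Msx and Dlx proteins are homeodomain transcription factors related to Drosophila msh and Distal-less. Msx1 and Msx2 are well known targets of BMP signalling in limb mesenchyme and the apical ectodermal ridge. They act mainly as repressors, in limb patterning, interdigital cell death and skull bone growth. The Dlx genes lie in convergently transcribed pairs, so that the outer ends of a pair are its start sites and the space between its genes can hold shared enhancers. Dlx5 and Dlx6 act in the apical ridge and in cartilage and bone, and loss of both gives split hands and feet. Dlx1 and Dlx2 are best known from forebrain interneurons and jaws, and Dlx3 and Dlx4 from ectoderm, skin, teeth and placenta.

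The names of the deposited lists of both Sox9-deficient samples are exchanged relative to their sample titles. Groups follow the titles here, so these are called the Sox9null-labelled and the Sox9cKO-labelled list, and the Control lists of E11.5 and E12.5 the younger and the older control. At the forelimb gene Tbx5 (gene body plus 100 kb) peaks covered 34.4 kb in the younger control and 37.9 kb in the Sox9cKO-labelled list, against 6.04 kb in the older control and 0 kb in the Sox9null-labelled list. The lists held 28419 to 36937 peaks with median widths of 1141 to 1778 bp, and their depth in reads is unknown. Limb mesenchyme was marked, with all 10 of its markers within 20 kb of a peak in the younger control, 9 in the older control, 8 in the Sox9null-labelled list and 10 in the Sox9cKO-labelled list. The summed covered length of these 10 was 233 to 254 kb per list, against 38.1 to 57.9 kb for 12 surface ectoderm and ridge markers, 46.5 to 62.5 kb for 7 muscle, 23.4 to 41.1 kb for 6 endothelial, 8.71 to 22.5 kb for 6 erythroid and 3.602 to 5.98 kb for 5 neural markers. Krt14, Myod1, Hbb-bt and Sox2 had no peak within 20 kb in any list. Of the 7 muscle markers, 2 had no peak there in the younger control, 4 in the older control, 4 in the Sox9null-labelled list and 1 in the Sox9cKO-labelled list. Tnnt3 alone gave 28.4 to 44.3 kb of the muscle sums.

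Promoter sequences are shown for Msx1, Msx2, Dlx1 and Dlx2. The acetylation data separate these genes: both Msx promoters lay inside peaks in every list, and the Dlx1 promoter in only some. No other member had a promoter sequence to show. The sequences are the 250 bases before each start site, from RefSeq (GRCm38.p6, the assembly of mm10), read 5′ to 3′ on the gene's strand. The RefSeq table holds such a sequence for these 4 of the 8 genes, and that of Dlx1 precedes a start site inside the annotated gene. Capitals mark matches on either strand to TAATT (the homeodomain core), ACAAT (the SOX core), CCAAT, the GC box GGGCGG or the TATA box TATAAA.
Msx1 (chr5:37824586-37824835, minus strand): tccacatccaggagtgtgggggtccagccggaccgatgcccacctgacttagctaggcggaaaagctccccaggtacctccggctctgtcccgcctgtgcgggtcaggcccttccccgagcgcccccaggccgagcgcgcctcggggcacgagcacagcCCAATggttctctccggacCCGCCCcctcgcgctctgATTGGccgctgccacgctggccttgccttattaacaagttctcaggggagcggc
Msx2 (chr13:53472781-53473030, minus strand): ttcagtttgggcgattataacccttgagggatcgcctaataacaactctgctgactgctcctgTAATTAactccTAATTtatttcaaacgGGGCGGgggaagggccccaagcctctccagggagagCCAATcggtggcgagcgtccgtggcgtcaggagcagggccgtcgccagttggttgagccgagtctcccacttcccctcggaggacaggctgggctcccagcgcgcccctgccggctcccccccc
Dlx1 (chr2:71529195-71529444, plus strand): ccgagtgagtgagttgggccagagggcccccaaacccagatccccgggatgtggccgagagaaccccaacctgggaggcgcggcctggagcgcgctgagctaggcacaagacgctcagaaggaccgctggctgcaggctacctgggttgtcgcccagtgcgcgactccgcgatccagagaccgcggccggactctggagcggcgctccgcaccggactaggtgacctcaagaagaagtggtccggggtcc
Dlx2 (chr2:71546755-71547004, minus strand): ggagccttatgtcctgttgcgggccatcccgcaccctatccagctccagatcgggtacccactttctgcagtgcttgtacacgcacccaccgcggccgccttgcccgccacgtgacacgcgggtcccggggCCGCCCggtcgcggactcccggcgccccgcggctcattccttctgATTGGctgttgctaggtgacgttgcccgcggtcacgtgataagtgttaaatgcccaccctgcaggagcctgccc

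All 4 stretches were rich in G and C, at 68.0% for Msx1, 61.6% for Msx2, 68.0% for Dlx1 and 66.4% for Dlx2, against a median of 55.6% over 21262 promoters of the same length. The Msx2 stretch held 3 matches to TAATT, a pair of which overlap, and the other 3 stretches held none. At least 1 such match was present in 22.2% of all promoters. CCAAT matched at 2 places in Msx1, at 1 each in Msx2 and Dlx2 and nowhere in Dlx1 (35.4% of promoters). GGGCGG matched at 1 place each in Msx1, Msx2 and Dlx2 (42.6% of promoters). ACAAT (25.1%) and TATAAA (11.6%) matched in none of the 4 stretches. A match is a description of letters and not a binding site.

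The Msx1 and Msx2 stretches were covered along 100% of their length by peaks in all 4 lists. That of Dlx1 was covered along 100% in the younger control and in the Sox9cKO-labelled list, and along 0% in the older control and the Sox9null-labelled list. For Dlx2 the covered share was 100% in the same former lists, 58.8% in the older control and 36% in the Sox9null-labelled list. Over all promoters, 50.7 to 56.3% were touched by a peak, depending on the list.

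Msx1, the BMP-induced repressor (chromosome 5, 37820491 to 37824585, mm10), had the highest-ranked peak of the 8 genes in every list. The gene lay wholly within a marked domain of 13.4 kb that reached beyond both of its ends. This domain was the 95th widest of 49361 regions in the union of the lists, within the upper 0.192%. Peaks covered 12.4 kb of it in the younger control (in 4 pieces), 13.2 kb in the older control (in 1 piece), 13.2 kb in the Sox9null-labelled list (in 1 piece) and 12.46 kb in the Sox9cKO-labelled list (in 2 pieces). The covered length thus hardly differed between the lists, and what differed was how many peaks it was divided into. The score of the peak over the gene was 3100 in all 4 lists. The score is the authors' own and is used only within a list. This value was shared by 702 to 2772 peaks per list, and the highest score was 3233. Only 2.65 to 7.94% of peaks scored as high or higher.

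Beyond the gene, 4 regions were marked in every list 68.5, 71.1, 76.5 and 92.0 kb from Msx1, on the side of its start. The region 92.0 kb away (chromosome 5, 37916561 to 37918909, between genes) was covered over 1.10 kb in the younger control, 1.27 kb in the older control, 2.35 kb in the Sox9null-labelled list and 1.60 kb in the Sox9cKO-labelled list. On the other side of the gene no region was common to all lists. The nearest one there, 50.6 kb away, was absent from the Sox9cKO-labelled list alone. The older control had 4 regions of its own 68.1 to 98.8 kb from the gene, with low scores of 51.2 to 89.5, where the lowest score in the lists was 50.01.

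Msx2 (chromosome 13, 53466881 to 53472780), the other BMP-responsive Msx gene of the limb, lay in a marked domain of 11.4 kb, the 149th widest region of the union. Peaks covered 9.63 kb of it in the younger control, 11.2 kb in the older control, 11.3 kb in the Sox9null-labelled list and 10.1 kb in the Sox9cKO-labelled list. The best peak over the gene ranked lower than that of Msx1, with 9.89 to 14.9% of peaks scoring at least as high. A second region (53473957 to 53477859), 1.18 kb beyond the start of Msx2, was marked in all lists over 2.75, 3.79, 3.82 and 2.57 kb, in the younger control, the older control, the Sox9null-labelled and the Sox9cKO-labelled list.

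Further out, several Msx2 regions were found in some lists only. A region 13.9 kb beyond its start (53486660 to 53489208, between genes) had a peak of 1.12 kb in the older control and of 2.55 kb in the Sox9null-labelled list, and none in the other lists. The region 40.7 kb beyond its other end was likewise found only in the older control and the Sox9null-labelled list. A peak of 2.38 kb found in the Sox9null-labelled list alone (53529666 to 53532044) had a score of 172, and 57.2% of that list's peaks scored at least as high.

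**Figure D1:**
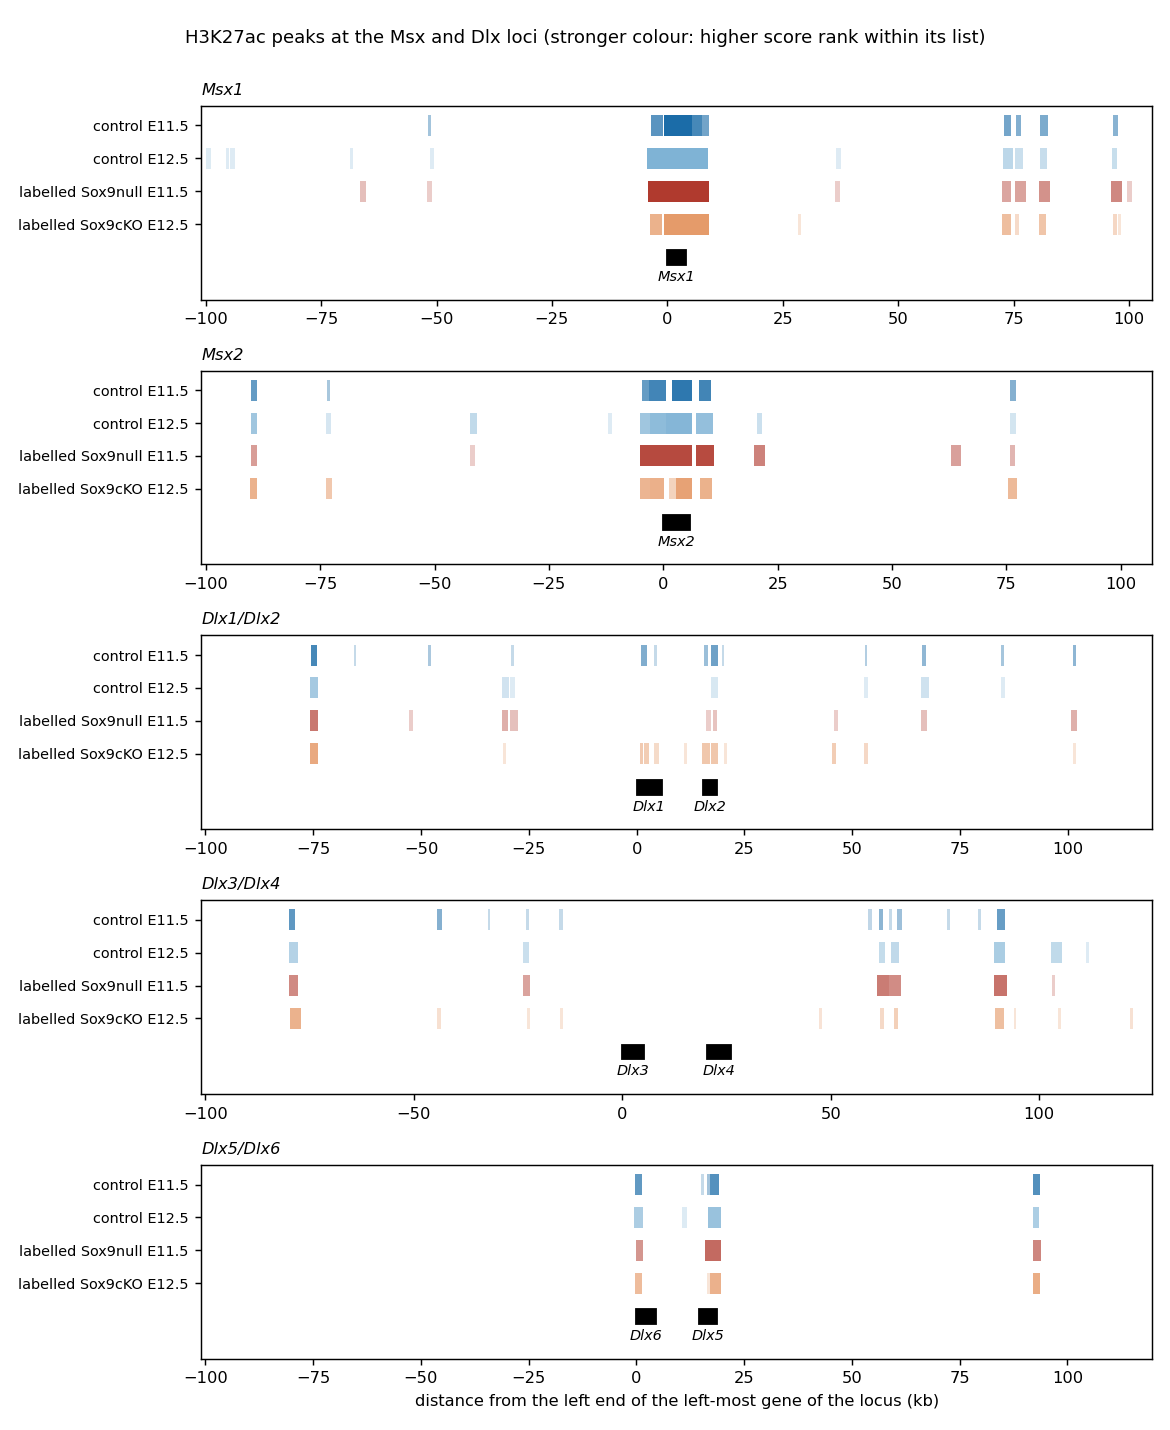
Each bar is 1 H3K27ac peak within 100 kb of the genes, drawn at its distance in kb from the left end of the left-most gene of the locus (x axis), with a row for each of the 4 lists; stronger colour is a higher score rank within the list, and black boxes are the genes. Msx1 and Msx2 are overlapped by wide peaks in all rows, Dlx5 and Dlx6 have peaks at their outer ends, Dlx1 has peaks in 2 rows, and Dlx3 and Dlx4 have none.

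Dlx5 and Dlx6, the ridge and skeletal pair (chromosome 6, 6877801 to 6882068 and 6863334 to 6867970), were marked at their outer ends, where they start, in all 4 lists. At the start of Dlx5 a region of 3.84 kb was covered over 2.79 kb in the younger control, 3.11 kb in the older control, 3.84 kb in the Sox9null-labelled list and 3.23 kb in the Sox9cKO-labelled list. At the start of Dlx6 the covered lengths were 1.66, 2.025, 1.68 and 1.72 kb in the same lists. The best peak over Dlx5 ranked within the upper 25.6 to 30.1% of its list and that over Dlx6 within the upper 35.4 to 51.6%. Both were thus marked by peaks of middling rank that were present throughout.

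The whole Dlx5 and Dlx6 window held 5 regions in 219 kb. Between the genes only the older control had a peak (6873810 to 6875054, 1.245 kb, score 88.2). The last region was at the left end of Sdhaf3, a mitochondrial assembly factor gene, and was marked in all lists. Known limb enhancers of Dlx5 and Dlx6 lie outside the window in exons of Dync1i1, a dynein chain gene whose nearer end was 835 kb from Dlx6. Over the body of Dync1i1 peaks covered 10.4 kb in the younger control, 25.4 kb in the older control, 22.0 kb in the Sox9null-labelled list and 14.5 kb in the Sox9cKO-labelled list. The region there marked in all lists with the highest scores (6004410 to 6008358) had 740, 866, 785 and 826. Covered length over Dync1i1 was thus higher in the older control and the Sox9null-labelled list than in the other lists. Which of these regions overlap exons was not examined.

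Dlx1, an interneuron and jaw gene (chromosome 2, 71528113 to 71533981), had peaks in only some of the lists. Peaks covered 34.4% of the gene in the younger control and 52.3% in the Sox9cKO-labelled list, and none of it in the older control or the Sox9null-labelled list. The region nearest its annotated start (71528902 to 71531033) had scores of 168 and 162 in the lists that held it. Its peaks began 0.925 kb from that start in the younger control and 0.789 kb in the Sox9cKO-labelled list. They spanned the internal start site that the printed stretch precedes. Dlx2, its partner with similar roles (71543408 to 71546754), carried peaks along 66.0% of the gene in the younger control, 40.3% in the older control, 65.3% in the Sox9null-labelled list and 90.5% in the Sox9cKO-labelled list. Its start region was present in every list, and 41.3 to 75.0% of peaks scored at least as high as the best peak over the gene.

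Within 20 kb of Dlx1, peaks covered 4.96 kb in the younger control, 1.497 kb in the older control, 2.27 kb in the Sox9null-labelled list and 7.87 kb in the Sox9cKO-labelled list. The Sox9cKO-labelled list and the younger control were thus the higher ones, as they were at Tbx5. Both were also higher at the ridge gene Sp8 (within 100 kb 4.34, 1.91, 0.701 and 6.28 kb in the same order) and at Meis1 and Meis2, homeobox genes of the proximal limb. Meis1 had 15.4, 10.6, 11.53 and 19.0 kb and Meis2 14.8, 10.9, 9.75 and 20.1 kb. The mesenchymal genes Prrx1 (22.6, 38.5, 32.9 and 23.6 kb) and Twist1 (13.5, 23.4, 19.5 and 14.4 kb) had the other pair of lists higher. The other 11 ectoderm genes did not share the order of Sp8 within 100 kb. At 20 kb, the ectoderm genes Sp6, Sp8 and Epcam all had the younger control and the Sox9cKO-labelled list higher, as Dlx1 did. The remaining ectoderm genes did not. The ectoderm markers as a whole had a summed covered length within 20 kb of 43.04, 52.3, 38.1 and 57.9 kb, and 2, 2, 4 and 2 of 12 had no peak there. Markers of other cell types also differed among themselves within 100 kb. The younger control and the Sox9cKO-labelled list were higher at the muscle genes Pax7 and Myf5 and the endothelial gene Kdr. They were also higher at the erythroid gene Tal1 and the neural gene Tubb3. The other pair was higher at the muscle gene Tnnt3 and the endothelial genes Erg and Tek. Within 100 kb Dlx1 itself had 11.3 kb in the younger control and 11.8 kb in the Sox9null-labelled list, and so lacked its 20 kb order. Within 20 kb that order was shared by Pax3, Myf5, Tie1, Cdh5, Pecam1, Tal1, Epor, Hba-a1, Sox10 and Tubb3. Tnnt3, Erg and Tek had the other pair higher there, and the remaining markers of these cell types had neither. The order seen at Dlx1 within 20 kb was thus not limited to ectoderm or limb genes. The part of ectoderm, other cell types, limb type or stage in the Dlx1 values was not tested. In whole limb buds fewer marked cells and less of the mark per cell cannot be told apart.

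Dlx3 and Dlx4, the ectodermal and placental pair (chromosome 11, 95120117 to 95125296 and 95140447 to 95146294), had no peak over either gene or between them in any list. The nearest peak to the start of Dlx3 was 14.3 kb away in the younger control, 22.3 kb in the older control, 22.0 kb in the Sox9null-labelled list and 14.1 kb in the Sox9cKO-labelled list. For Dlx4 the distances were 32.8, 35.3, 34.8 and 21.0 kb. Genes of this pair were therefore unmarked at the threshold of these lists, which does not show that the mark is absent from a few cells.

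The flank beyond Dlx4 was marked all the same. Regions 34.8, 37.7 and 63.1 kb from it, between genes, had peaks in all 4 lists. The nearest (95181133 to 95184008) was covered over 0.989 kb in the younger control, 1.53 kb in the older control, 2.88 kb in the Sox9null-labelled list and 1.06 kb in the Sox9cKO-labelled list. The Sox9null-labelled list had the widest peaks in all 3 of these regions. Whether they act on Dlx3 or Dlx4 cannot be read from peak positions. On the other side, a region at the right end of Pdk2, a pyruvate dehydrogenase kinase gene, was marked in all lists, and a region at the right end of the integrin gene Itga3 in the younger control and the Sox9cKO-labelled list only.

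**Figure D2:**
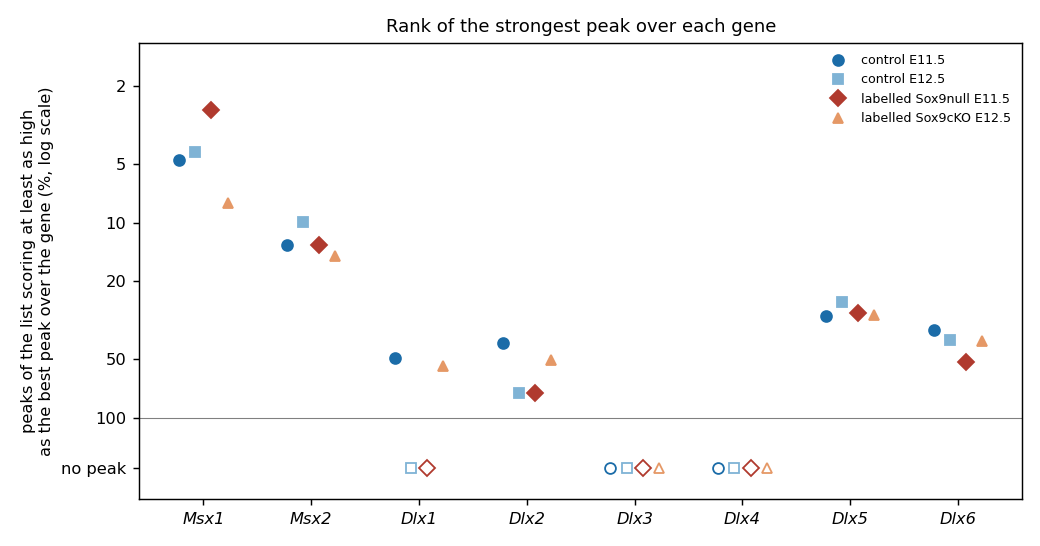
For each gene (x axis) and list (symbols) the y axis gives, on a log scale, the percentage of the list's peaks that score at least as high as the best peak over the gene, with strong peaks at the top and open symbols where no peak overlaps the gene. Msx1 sits between 2.65 and 7.94%, Msx2 between 9.89 and 14.9%, Dlx5 and Dlx6 below them, and Dlx3 and Dlx4 have no peak.

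Taking gene bodies alone, 6 of the 8 genes had a peak in the younger control, 5 in the older control, 5 in the Sox9null-labelled list and 6 in the Sox9cKO-labelled list. Over all protein-coding genes the shares were 62.8%, 58.8%, 57.1% and 63.4%. As a share of the window within 20 kb, peaks covered 28.2 to 29.9% at Msx1 and 26.98 to 38.6% at Msx2. The covered share was 11.1 to 14.4% at Dlx5 and Dlx6, 3.26 to 18.2% at Dlx1 and Dlx2, up to 1.999% at Dlx3 and 0% at Dlx4. In every list both Msx genes were thus above all 6 Dlx genes, and Dlx3 and Dlx4 below the other members. Dlx1 and Dlx2 lay above Dlx5 and Dlx6 in the Sox9cKO-labelled list and below them in the other lists.

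Within 100 kb, peaks covered 18.6 kb at Msx1 in the younger control, 25.5 kb in the older control, 26.7 kb in the Sox9null-labelled list and 19.3 kb in the Sox9cKO-labelled list. For Msx2 the lengths were 15.7, 22.3, 23.8 and 17.2 kb in the same order. At both genes the older control and the Sox9null-labelled list were higher. These lists also had the wider median peak (1707 and 1778 bp, against 1141 bp in the younger control and 1332 bp in the Sox9cKO-labelled list), and the part of peak width in this result was not tested. Dlx1 and Dlx2, whose windows held the same peaks, had 11.3, 9.71, 11.8 and 13.0 kb. Dlx3 had 11.4, 11.7, 13.6 and 11.2 kb and Dlx4 11.2, 12.6, 13.4 and 12 kb. Dlx5 and Dlx6 both had 6.86, 7.95, 7.42 and 6.62 kb. The medians over all genes were 7.26, 7.80, 7.32 and 8.25 kb, so the Msx genes were far above them and Dlx5 and Dlx6 near them. Msx1 ranked within the upper 6.80 to 17.8% of all genes and Msx2 within the upper 9.24 to 21.6%.

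**Figure D3:**
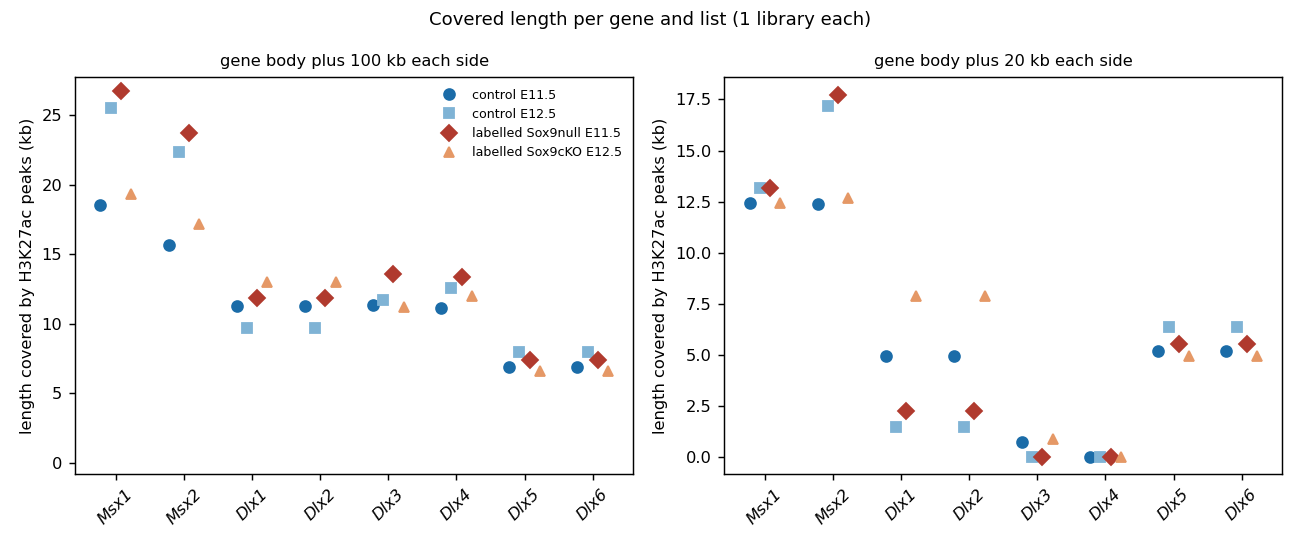
Length covered by H3K27ac peaks in kb (y axes) at each gene (x axes), over the gene body plus 100 kb (left) or 20 kb (right) on each side, with a symbol for each of the 4 lists and 1 library per list. On the left the older control and the Sox9null-labelled list are the higher pair at Msx1 and Msx2; on the right the younger control and the Sox9cKO-labelled list are the higher pair at Dlx1 and Dlx2.

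Between the control stages none of the 8 genes differed by 1.5-fold or more in covered length within 100 kb. The share of all genes with any peak that did so was 12.3% upward and 7.17% downward. The E12.5 value was 1.38 times the E11.5 value at Msx1, 1.43 times at Msx2 and 0.861 times at Dlx1 and Dlx2. It was 1.03 to 1.16 times at the other 4 genes. Peaks covered 66.67 Mb in all in the older control, against 52.03 Mb in the younger control. After division by these totals, the log2 ratio went from 0.4596 to 0.102 at Msx1 and from 0.511 to 0.154 at Msx2. The scaled ratio was negative at all Dlx genes. When only the higher-scoring 50% of peaks were kept, the unscaled log2 ratio was -0.243 at Msx1 and 0.255 at Msx2. The Msx ratios thus depended on the total coverage of the lists. Without scaling, the median log2 difference was 0.18 for the 8 genes and 0.06 for all genes with any peak. The 8 genes lie at only 5 loci, and paired genes had the same or largely shared peaks. Within 20 kb, Dlx1 and Dlx2 passed 1.5-fold downward, and Dlx3, with 1 peak in the younger control and none in the older, was counted with them (11.4% of all genes were lower by this rule).

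A comparison of both deficient lists with both controls is the same whichever way round the deficient lists are named. Dlx1 and Dlx2 had a longer covered length in both deficient lists than in either control, and none of the 8 genes a shorter one. Over all genes the shares were 14.4% higher and 5.51% lower, and these 2 genes are 1 locus with the same peaks. After division by the list's total covered length, or within 20 kb, neither gene met this rule. Leaving out the older control gave 5 higher genes (43.4% of all genes) and leaving out the Sox9cKO-labelled list 6 (22.5%), while 2 were lower without the younger control (29.5%) and 3 without the Sox9null-labelled list (11.503%). At the other 4 loci the range of the deficient lists overlapped that of the controls.

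By label, only Msx2 passed 1.5-fold in the Sox9null-labelled list against the younger control, at 1.52 times (7.46% of all genes passed upward and 9.76% downward). It was 1.44 times at Msx1 and 1.0498 to 1.197 times at the Dlx genes. In the Sox9cKO-labelled list against the older control no gene passed (12.4% and 7.94% of all genes did), with 0.757 times at Msx1, 0.768 times at Msx2 and 0.832 to 1.34 times at the Dlx genes. With the lists exchanged, as their deposited names have it, the 8 ratios had a narrower range. They ran from 0.964 to 1.15 for the Sox9cKO-labelled list against the younger control (8.33% and 2.07% of all genes passed) and from 0.933 to 1.22 for the Sox9null-labelled list against the older control (1.8% and 7.74%). Msx2 then had ratios of 1.09 and 1.06. As labelled, 6 of the 8 genes (all but Dlx1 and Dlx2) were higher in the deficient list at E11.5 and lower at E12.5, as were 26.7% of all genes, and none of the 8 went the reverse way, as 38.5% of all genes did.

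The windows of the 8 genes held 62 regions, of which 19 were marked in all 4 lists. In the whole union 40.1% of regions were. Of the 19, 5 lay over members (Msx1, Msx2, Dlx2, Dlx5 and Dlx6), 4 at the ends of neighbouring genes and 10 between genes. Within each list these 19 regions ranked higher than the regions that the list alone held. No such comparison is given for the whole union, so this cannot be read as particular to these loci. The median share of peaks scoring at least as high was 38.5, 46.8, 45.9 and 40.5% for the 19 in the younger control, the older control, the Sox9null-labelled and the Sox9cKO-labelled list, against 85.9, 84.9, 81.7 and 84.7% for the 8, 7, 4 and 6 regions of 1 list. A single region was marked in both controls and neither deficient list (1.64% of all regions), 65.9 kb from Dlx2, with scores of 91.9 and 79.9. Another single region was marked in both deficient lists and neither control (1.15% of all regions), 26.6 kb from Dlx2, with scores of 54.2 and 145. All 4 scores lay below the median of their list (162 to 240).

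The younger control and the Sox9cKO-labelled list alone shared 4 regions (6.45% of all regions), 2 of them over Dlx1 and 2 in the window of Dlx3 and Dlx4. The older control and the Sox9null-labelled list alone shared 3 (3.68% of all regions), at Msx1 and Msx2. No region was shared only by the lists labelled E11.5 (0.632% of all regions) or only by those labelled E12.5 (1.97%). Among the 19 common regions, the Sox9null-labelled list covered more than the younger control in 17 (73.2% of the common regions of the union) and more than the older control in 14 (46.0%). The older control covered more than the younger control in 14 (75.3%), as did the Sox9cKO-labelled list (71.9%), which covered more than the older control in 7 (41.2%). The Sox9null-labelled list covered more than the Sox9cKO-labelled list in 14 (57.0%). The common regions of the members were thus most often wider in the Sox9null-labelled list, where the median ratio to the older control was 1.11, against 0.988 in the union.

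**Figure D4:**
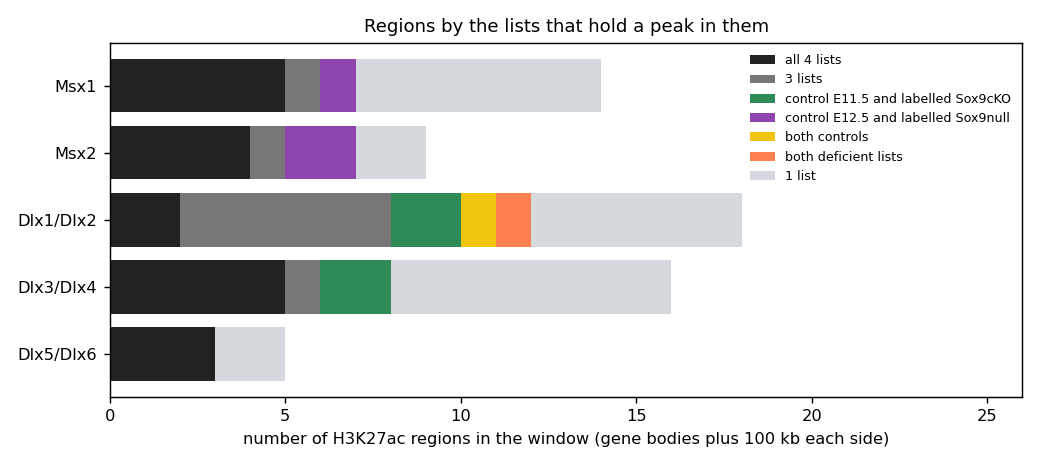
Stacked bars count the H3K27ac regions in the window of each locus (x axis, number of regions), coloured by which of the 4 lists hold a peak in the region. Of the 62 regions, 19 are in all lists and 25 in 1 list; only the Dlx1 and Dlx2 window has a region of both controls alone and one of both deficient lists alone.

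Of 11 genes of BMP input to Msx genes (ligands, receptors, SMADs and Id targets), 1 was covered by less in both deficient lists than in both controls within 100 kb and none by more. Over all genes with any peak 5.51% were lower and 14.4% higher by this rule. These shares apply to the other gene lists below as well. The median log2 difference was 0.04 for the 11 genes and 0.05 for all genes. In controls 1 of the 11 passed 1.5-fold upward at E12.5 (12.3% of all genes), the receptor gene Bmpr1b. It had 5.47 kb in the younger control, 15.5 kb in the older control, 7.13 kb in the Sox9null-labelled list and 7.39 kb in the Sox9cKO-labelled list. Of 8 bone formation genes, 2 were higher and 2 lower in both deficient lists. The higher ones were Alpl (10.3, 10.9, 11.6 and 14.1 kb in the same order of lists) and Spp1 (9.23, 8.99, 9.72 and 10.3 kb). Among the lower ones was Runx2, which drives osteoblast formation (14.0, 16.4, 12.8 and 11.4 kb in the same order of lists). Of 15 other limb homeobox genes 1 was higher and 1 lower by the same rule, and of 12 ectoderm and ridge genes 1 was higher and none lower.

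The genes with the most similar covered lengths over the 4 lists, more than 1 Mb from any member, were Fam177b, Gm536 and Slc2a3 for Msx1 and Mical2, Prss38 and Slc22a23 for Msx2. Their mean absolute differences were 0.05 to 0.07 on the log2(kb + 0.5) scale. For Dlx1 they were Gm6583, Hps4 and Ivd, for Dlx3 Nsmce4a, Car7 and Pdf, and for Dlx5 Orc3, Rars2 and Arrdc3. With only 4 lists such likeness is common: 362 genes lay within 0.2 of Msx1, 382 of Msx2, 1520 of Dlx1, 1317 of Dlx3 and 1183 of Dlx5.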

How the data were processed

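H3K27ac peaks were used from the 4 of 24 samples with a list, and the other 20 samples were not analysed here. The lists are the authors' deposited files, with the start and end of each peak in bp and a peak score. Per the submitters' processing notes the tools were CASAVA 1.8 and deepTools, and the build mm10. Peak names name MACS as the caller. The sources used here do not give its settings, the aligner or any input subtraction. There is 1 list per sample, and no header states whether peaks were called on it alone.

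Genes came from RefSeq GRCm38.p6, and all 8 symbols matched. Covered length is the bp under peaks in a window, and regions are overlapping or touching peaks of the 4 lists merged. The 18903 genes with any peak within 100 kb gave the background shares. Ratios of 1.5 or more were counted, and medians used log2(kb + 0.5). Members, gene lists and the rule for naming other genes (at most 3 per list, those with the largest fold) were chosen with earlier results of these data known. Some genes outside that rule are named as well. Alternatives were stricter lists, windows of 20 or 5 kb, scaling, exchanged lists, other merging and presence rules, and leaving out each list. Coverage was tested on simulated data, with 0 of 1600 values wrong. Python 3.11.15, numpy 2.4.6, pandas 2.3.3 and matplotlib 3.10.9 were used. Values of some listed genes are not reported here.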

Additional observations from a re-analysis of the deposited data

Results flagged for a closer look

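At 6 of the 8 genes the covered length within 100 kb was higher in the Sox9null-labelled list than in the younger control and lower in the Sox9cKO-labelled list than in the older control, so that the deficient lists moved in opposite directions at the labelled stages. The log2 ratios were 0.53 and -0.40 at Msx1, 0.60 and -0.38 at Msx2, 0.26 and -0.064 at Dlx3, 0.26 and -0.066 at Dlx4, and 0.11 and -0.26 at Dlx5 and Dlx6, which share their peaks. The difference between the stages was not tested, as each list is 1 library. Of all genes with any peak, 26.7% moved in this way and 38.5% in the reverse way. The 6 genes are fewer loci, because the windows of Dlx3 and Dlx4 also largely overlap. With the deficient lists exchanged, as their deposited names have it, none of the 6 moved in this way. Msx1, Msx2 and Dlx4 were then higher than the control in both comparisons, and Dlx5 and Dlx6 lower in both. Dlx3 was lower against the younger control and higher against the older control.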

How the results depend on the processing

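Each list is 1 library of unknown depth, and weak regions lie near the lowest score reported, and nothing shows how far under the threshold a missing region lay. No paired analysis was possible because each group has 1 library and no value comes from a test. Of 94 recomputed counts, 49 stayed within 1.5 times their first value and 45 did not; the causes were not tested beyond what each setting fixes (fewer peaks, narrower windows). Shares in parentheses are those over all genes or all regions under the same setting. With both deficient lists against both controls, 0 genes were higher with 20 kb (16.1%), with 5 kb (16%) or after scaling (7.97%), and 2 before. Leaving out 1 list gave 2 to 6 genes higher (22.5 to 54.3%) and 0 to 3 lower (11.503 to 35.0%): 5 higher without the older control (43.4%), 6 higher without the Sox9cKO-labelled list (22.5%), 2 lower without the younger control (29.5%) and 3 lower without the Sox9null-labelled list (11.503%).

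For controls, the count lower at E12.5 went from 0 to 2 with the upper 50% of each list (10.4%), 3 with 20 kb (11.4%) and 2 with 5 kb (12%), and the count higher went from 0 to 2 with the same number of top peaks (14%). For the Sox9null-labelled list against the younger control, the count higher was 2 with the upper 50% (5.92%), 3 with the same number of top peaks (11.3%), and 0 with 20 kb (8.21%), 5 kb (7.96%), scaling (4.64%) or exchanged lists (8.33%), from 1 before. The count lower was 2 with the upper 50% (16.4%), 3 with 20 kb (14.7%) and 1 with 5 kb (15.2%), from 0 before. For the Sox9cKO-labelled list against the older control, the count lower was 2 with the same number of top peaks (9.30%), and the count higher 3 with 20 kb (16.5%) and 2 with 5 kb (16.5%), all from 0 before.

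In place of 62 regions there were 19 with the upper 50% of each list, 8 of them in all lists (56.0%), 7 in 1 list (17.6%), 1 in the younger control and the Sox9cKO-labelled list (10.8%), and 0 each in both controls (0.973%), in both deficient lists (0.391%), or in the older control and the Sox9null-labelled list (2.94%). With the same number of top peaks 13 were in 1 list (27.5%) and 7 in the older control and the Sox9null-labelled list (6.07%). For narrower windows the shares over all regions stay 40.1% in all lists, 34.7% in 1 list and 1.15 to 6.45% in these pairs. Within 20 kb there were 17 regions, 6 in all lists, 6 in 1 list, 1 in the older control and the Sox9null-labelled list, and 0 in both controls or both deficient lists. Within 5 kb there were 14, 6 in all lists, 5 in 1 list, 2 in the younger control and the Sox9cKO-labelled list, and 0 in the other 3 pairs. Merging peaks up to 500 bp apart, or asking for 20% of the region to be covered, moved no region count by over 1.5 times.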
